A study of Mus musculus with 48 samples.

Results

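Variable m6A regions in 3′UTRs are stretches centred in the 3′ untranslated part of mRNAs that carried an m6A peak in some of the mice studied but not in others. The peaks of the 24 m6A immunoprecipitation (IP) peak lists were joined where they overlapped by at least 1 bp, which gave 81807 common regions. Of these, 39806 were called in 3 to 23 animals. The regions described here are the 3902 of them (in 3443 genes) whose midpoint lay in a 3′UTR and outside the coding sequence (CDS) of protein-coding genes of the mouse assembly mm9. Only the midpoint was placed, so a region can reach across the stop codon into the CDS. They were thus chosen by the number of animals with a peak call and by the annotation, without use of the condition labels. A region could still enter through the calls of 1 condition alone. The calls compared between conditions below are the same ones that entered this choice, so the choice is not independent of the groups.

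The lists come from the hippocampus of male mice on a C57BL/6 background, 3 animals in each of 8 conditions. Heterozygous Hdh+/Q111 knock-in mice (KI), a model of Huntington's disease with a long CAG tract knocked into the huntingtin locus, stand against wild-type mice (WT). Trained mice explored an arena with objects in the object location task, a test of spatial memory, and were taken 30 min later, while naive mice were not trained. Both genotypes and both states were sampled at 8 months and at 5 months. The animals of 8 months and those of 5 months carry numbers from separate ranges, so each series of animals holds a single age. A difference by age thus cannot be told apart from a difference between these series of animals or in their handling, which was not tested. The tissue is the whole hippocampus and the values are peak calls. A difference can come from the methylation of the RNA or from the yield or read depth of a library. It can also come from fewer cells of a type or from less RNA per cell, and these cannot be told apart. Each animal is in 1 condition, so the spread given is that between separate animals.

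N6-methyladenosine is placed on the adenosine of a short consensus motif by the METTL3 and METTL14 writer complex. FTO and ALKBH5 are the demethylases, and YTH-domain proteins are the readers that couple the mark to decay, translation or transport of the mRNA. On mRNAs the mark gathers around the stop codon and along the 3′UTR, the part that also holds the sites through which neurons send transcripts to dendrites and set their stability. Long 3′UTRs are common in brain transcripts, which leaves room for several methylated stretches in 1 mRNA.

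The sequences below are stretches of at most 29 bases from regions that the comparisons turn on, chosen to show the motif near the summit of the peak. They were read from mm9 on the transcribed strand. Capitals mark the GGACT nearest the strongest summit, or the nearest GGAC where no GGACT was found, within 50 bp of it. Other copies of GGAC stay in lower case. Of 82 named regions searched, 34 had such a motif in the 3′UTR. At an unadjusted p under 0.05, Rab3d and Cldn14 were called more often in KI mice and Ap1m1 in WT mice, Fkbp5 in naive mice, and Faim2 at 8 months and Tmem138 at 5 months. Tnfrsf23 had calls in 4 trained and 0 naive mice and did not pass (Fisher's exact p = 0.0932). Ntrk2 and Ppp1r9a are genes with several variable regions, and Gria4, Kcnd3, Ppfia1 and Atf3 carry frequently called regions of synaptic, channel and activity-regulated genes.
Rab3d, chr9:21714838-21714866, minus strand, base 76 after the stop codon: tgtgagctatggGGACTgtctctcagctc
Cldn14, chr16:93919425-93919452, minus strand, base 43 after the stop codon: ctgggccccaaaGGACcaatgatggatg
Ap1m1, chr8:74780761-74780789, plus strand, base 119 after the stop codon: tcaagcctgagtGGACTcacacagaaccc
Fkbp5, chr17:28537288-28537315, minus strand, base 690 after the stop codon: tgccccactcaaGGACgatgttagcgct
Tnfrsf23, chr7:150854283-150854311, minus strand, base 151 after the stop codon: tcacagagatccGGACTaggcacctctaa
Faim2, chr15:99328203-99328230, minus strand, base 2362 after the stop codon: gaggagtcccagGGACacctgggtgggt
Tmem138, chr19:10645528-10645556, minus strand, base 104 after the stop codon: caggaagcagggGGACTtcctaggacaca
Ntrk2, chr13:59033480-59033508, plus strand, base 73 after the stop codon: agctgaactctgGGACTgctgttgcctat
Ntrk2, chr13:59234511-59234538, plus strand, base 4811 after the stop codon: gggaaaagacgaGGACgtcattttgcag
Ppp1r9a, chr6:5112384-5112412, plus strand, base 2646 after the stop codon: ttgttgcttcatGGACTttaaggatttcg
Gria4, chr9:4418244-4418271, minus strand, base 1894 after the stop codon: cagccagcaaatGGACctccacagcaca
Kcnd3, chr3:105476541-105476569, plus strand, base 4428 after the stop codon: ccttggaccaatGGACTattttacaaacc
Ppfia1, chr7:151663281-151663309, minus strand, base 612 after the stop codon: gactgatggtcaGGACTctgtgaacagcc
Atf3, chr1:192994636-192994663, minus strand, base 711 after the stop codon: ccaacagaggatGGACgacacctttccc

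GGAC stood within the 100 bp window centred on the strongest summit in 42.3% of the 3902 variable regions. The share was 53.3% in the 3498 3′UTR regions called in all 24 animals, 34.0% in the 1776 called in 1 or 2 animals and 24.6% in all 100 bp tiles of annotated 3′UTRs. Among all 9176 3′UTR regions it was 44.9%. Within the variable regions it was 37.3% where 3 to 5 animals had a call and 48.5% where 23 had one. GGACT, the same motif with a following T, stood in 18.2% of the variable regions, 22.2% of those called in every animal and 8.83% of the tiles. In contrast, the share with GGAC changed little with the place in the 3′UTR, and lay between 44.4% in the first 200 bp after the stop codon and 40.0% beyond 2000 bp.

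Other motifs of the consensus stood closer to the tiles. AGAC stood in 39.6% of the variable windows against 31.4% of the tiles, GAAC in 33.0% against 26.2%, and AAAC in 34.5% against 35.9%. The polyadenylation signal AATAAA was found in 4.95% against 8.69%, and the AU-rich element core ATTTA in 9.87% against 15.0%. The tiles cover whole annotated 3′UTRs of genes with or without a peak. They were not matched to the windows in place, base composition or expression, which also holds for the shares of GGAC and GGACT above. Motifs were searched on the transcribed strand alone, GGACT is a part of the GGAC matches, and a match describes the letters of a window without showing that the base is methylated. In 57.7% of the variable windows no GGAC was found, in 32.6% there was 1 and in 8.00% there were 2.

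Variable regions lay farther into the 3′UTR than the regions called in every animal. Their median distance to the stop codon was 413 bp (quartiles 111 and 1425 bp), against 255 bp for the regions called in all 24 animals, and 888 bp for those called in 1 or 2 animals. Within the variable regions the median fell with the number of animals that had a call, with 775 bp at 3 to 5 animals, 630 bp at 6 to 11, 323 bp at 12 to 17, 278 bp at 18 to 22 and 214 bp at 23. As the choice of regions used the same calls, this order is a description without a test. The 3′UTRs themselves were of like length, with medians of 1750 bp for variable regions and 1790 bp for regions called in every animal. Their relative place was 0.33 of the way along the 3′UTR, against 0.18.

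**Figure D1:**
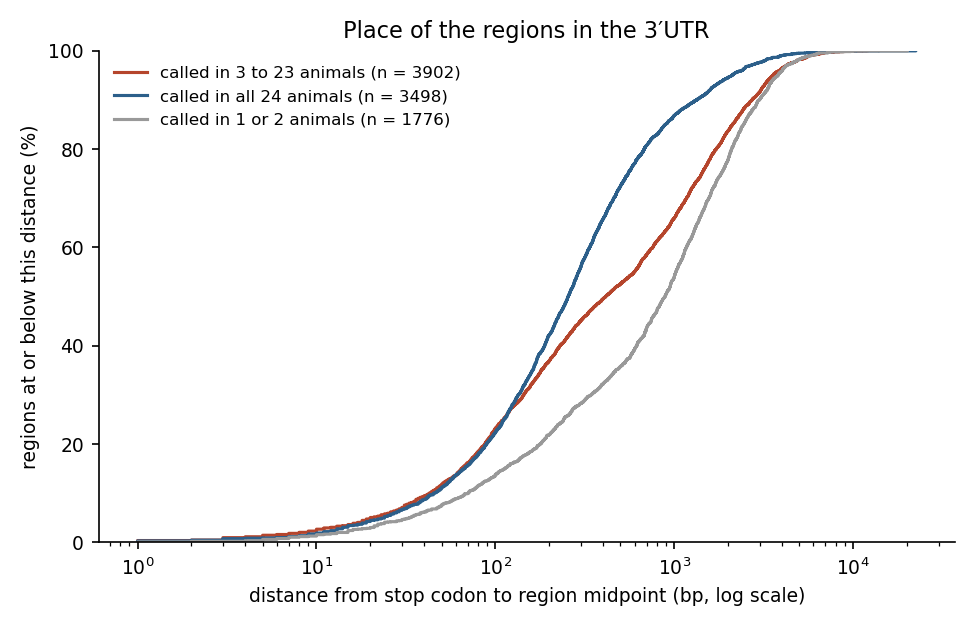
Cumulative share of 3′UTR regions (%) by distance from the stop codon to the region's midpoint (bp, log scale), for regions called in 3 to 23 animals, in all 24 and in 1 or 2. The curve of the variable regions (median 413 bp) leaves that of the regions called in every animal (255 bp) beyond about the first 100 bp and stays left of the regions called in 1 or 2 animals (888 bp).

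In all, 1443 of the 3902 variable regions had their midpoint in the first 200 bp after the stop codon, 608 lay at 200 to 500 bp, 524 at 500 to 1000 bp, 692 at 1000 to 2000 bp and 635 beyond 2000 bp. Regions beyond 1000 bp thus made up 34.0% of the variable ones. Those with a midpoint in the first 200 bp had a median length of 519 bp, so many of them can reach upstream of the stop codon. A region in the first 500 bp was called in a median of 15 or 16 animals, whereas in each of the 3 bins beyond 500 bp the median was 10 animals. Median region length was highest at 200 to 500 bp (633.5 bp) and lowest beyond 2000 bp (416 bp), and median fold enrichment over input was likewise highest (4.15) and lowest (3.38) in these bins. At the edges of the rule, 370 regions were called in 3 animals (587 in 2) and 480 in 23 animals (3498 in 24).

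Region length and signal differed with the number of animals that had a call. A joined region spans all of its peaks, so its length rises with the number of animals in part by construction. Variable regions spanned a median of 486.5 bp with a median fold enrichment over input of 3.67 (over the animals with a call), against 1083.5 bp and 5.17 in regions called in all 24 animals and 174 bp and 3.48 in those called in 1 or 2. The gene of a variable region also had a 3′UTR region called in every animal in 22.2% of cases. The midpoint also lay within another protein-coding gene, in any part of it, in 5.92% of the variable regions, and these are not named.

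Of the 5 strongest regions with calls in at least 12 animals, 3 lay within 216 bp of the stop codon. Adm, which encodes the vasodilator peptide adrenomedullin, was called in 23 animals 50 bp after its stop codon with a median fold enrichment of 11.5. Its values ran from 6.4 to 22.0 in the 12 trained animals and from 4.92 to 19.1 in the 11 naive animals with a call, so that the 2 ranges overlapped. Fcgr2b, the inhibitory Fc receptor of microglia, followed with 10.9 (216 bp, 23 animals), then 6530401N04Rik with 10.5 (153 bp, 21 animals) and Dsg2, a desmosomal cadherin, with 10.3 (1164 bp, 22 animals). The region of Kctd12b lay farthest out of the 5, at 3347 bp of a 3659 bp 3′UTR, with 10.7 in 23 animals.

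The farthest region of all was in Eif2c3, an Argonaute gene, at 12085 bp, with calls in 7 animals. Among regions called in at least 12 animals, Xpo7, encoding the nuclear transport receptor exportin 7, held one 11745 bp into an 11755 bp 3′UTR, at the annotated transcript end. It was called in 16 animals with a median fold enrichment of 9.51. Fut9, a fucosyltransferase that makes the Lewis x glycan of neurons, carried one at 9027 bp (23 animals, 4.03), and Zbtb1, a zinc finger transcription factor, one at 7714 bp (22 animals, 4.42). Rce1, the protease that trims prenylated proteins, Zfp346 and the DNA repair helicase gene Ercc3 held regions whose midpoint was the first base after the stop codon.

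Among the genes with several variable regions, Ntrk2 had the most, with 5. It encodes TrkB, the receptor of the growth factor BDNF, in a full-length and in truncated forms that end in different 3′UTRs. The 5 regions lay on 3 annotated 3′UTRs: at 30 bp of a 4970 bp 3′UTR (5 animals), at 513 bp of a 1280 bp one (18 animals), and at 2453, 3142 and 4845 bp of a 5617 bp one (4, 3 and 12 animals). In the 513 bp region the fold enrichment was 2.78 in 1 trained KI mouse of 8 months, 3.37, 3.58 and 2.64 in trained WT mice, 3.25 and 2.77 in naive KI mice and 4.31 in 1 naive WT mouse of that age. At 5 months it was 2.19, 2.34 and 2.83 in trained KI mice, 3.80 and 4.64 in trained WT mice, 3.07, 3.85 and 3.34 in naive KI mice and 3.82, 3.39 and 3.43 in naive WT mice. The calls of this region were spread over every condition. At 5 months the values of trained KI mice lay below those of the trained WT mice with a call, without overlap, while those of naive KI and naive WT mice overlapped. Values exist only where a peak was called, 1 of these trained WT mice had no call, and the difference was not tested. The regions at 2453 and 3142 bp had calls at 8 months alone, in 4 and 3 animals, too few for the test over animals to reach 0.05 (age p = 0.0932 and 0.217, Fisher's exact test).

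C2cd4c, Mbp, Ppp1r9a and Rprd2 were among the 6 genes with 4 variable regions. Ppp1r9a, which encodes the actin-binding spine protein neurabin, showed a fall in the number of animals along its 5909 bp 3′UTR, with 21 animals at 1670 bp, 19 at 2631 bp, 5 at 4312 bp and 3 at 5522 bp. C2cd4c had its most frequent region at 3355 bp (16 animals), with 4 or 5 animals at 934, 2060 and 4853 bp. Mbp, the myelin basic protein of oligodendrocytes, had regions in 23, 17, 7 and 16 animals over 3 annotated 3′UTRs. Of the genes with a nameable region, 2842 had 1, 349 had 2 and 34 had 3.

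An animal had a call in 943 to 3301 of the 3902 variable regions. The largest numbers were those of 2 naive KI mice of 8 months (3301 and 2886), and the smallest was that of a trained WT mouse of 5 months (943). These numbers moved with the length of the peak list, which ran from 22601 to 57293 peaks (Pearson r = 0.89, Spearman rho = 0.89 over 24 animals, permutation p = 1e-05 each, the smallest that 100000 permutations can give, adjusted p = 3e-05 over 3 relations). Without the 2 animals farthest from the median number of peaks, r was 0.85, and within ages it was 0.90 at 8 months and 0.91 at 5 months. Median peak length ran from 172 to 485 bp between animals, and its relation to the regions called was weaker (r = -0.55, rho = -0.47, permutation p = 0.00553 and 0.0213, adjusted 0.00664 and 0.0213). Without the 2 farthest animals it was -0.38. In 1 trained KI mouse of 5 months the variable regions made up 8.44% of its calls in all variable regions, against 10.6% to 13.0% in the other 23 animals.

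**Figure D2:**
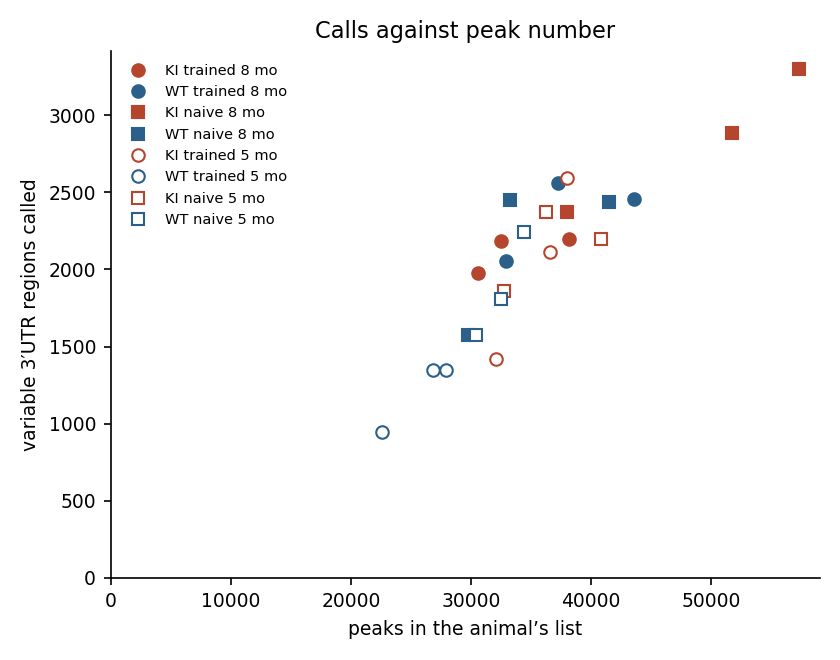
Variable 3′UTR regions called in each of the 24 animals against the number of peaks in that animal's list (circles trained, squares naive, filled 8 months, open 5 months, red KI, blue WT). The 2 naive KI mice of 8 months with 51735 and 57293 peaks have the most calls and the trained WT mouse of 5 months with 22601 peaks the fewest.

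KI mice had calls in more of the variable regions than WT mice in 3 of the 4 pairs of conditions. At 8 months, trained KI mice had calls in 54.3 ± 3.17% of the variable regions and trained WT mice in 60.4 ± 6.84% (mean ± SD, n = 3), and naive KI mice in 73.1 ± 12.0% and naive WT mice in 55.2 ± 12.9%. At 5 months it was 52.3 ± 15.1% in trained KI mice and 31.1 ± 5.99% in trained WT mice, and 54.9 ± 6.72% in naive KI mice and 48.1 ± 8.7% in naive WT mice. None of the 12 pairwise contrasts of 3 against 3 animals could go below p = 0.1 in the exact permutation test, and 4 of them, trained KI against trained WT mice at 5 months among them, were at that limit. Over the 4 pairs, the KI minus WT difference was 9.97 percentage points (exact stratified permutation test, 12 against 12 animals, p = 0.0342, adjusted p = 0.0936 over 9 tests). The calls counted here also entered the choice of regions, so the p-values of this measure are not independent of that choice.

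The same measure differed by -8.29 points between trained and naive mice (exact permutation p = 0.0693, adjusted p = 0.125) and by 14.2 points between mice of 8 months and mice of 5 months (exact permutation p = 0.00533, adjusted p = 0.0240). Total peaks moved the same way, by 5980 between KI and WT mice, -4973 between trained and naive mice and 6289 between mice of 8 and of 5 months. When the 22601 best peaks by p-value were taken from every animal, the 3 differences in variable regions called were -1.91, 1.81 and -0.43 points (exact permutation p = 0.446, 0.472 and 0.858). With lists of equal length the difference thus turned its direction in each factor. Without 3 animals that stood apart (the 2 with the most peaks and the 1 with the lowest 3′UTR share), the differences were 8.88, -3.20 and 9.07 points (exact permutation p = 0.106, 0.396 and 0.0492). The share of an animal's variable calls that fell in 3′UTRs averaged 11.5% in KI and 11.8% in WT mice, 11.7% in trained and 11.6% in naive mice, and 11.9% at 8 months and 11.4% at 5 months (differences -0.33, 0.10 and 0.58 points, exact permutation p = 0.445, 0.829 and 0.187).

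The change with training differed in sign between the genotypes at 8 months. Trained less naive was -18.8 points in KI mice and 5.19 points in WT mice, a difference of -24.0 points (exact permutation of the training labels within genotypes, p = 0.07, adjusted p = 0.285 over 6 tests). At 5 months it was -2.60 points in KI mice and -17.0 points in WT mice (difference 14.4 points, exact permutation p = 0.285). Neither difference passed the threshold. The number of peaks moved alongside at 8 months, with -15257 peaks in KI mice and 3066 in WT mice, and its part in the difference was not tested.

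**Figure D3:**
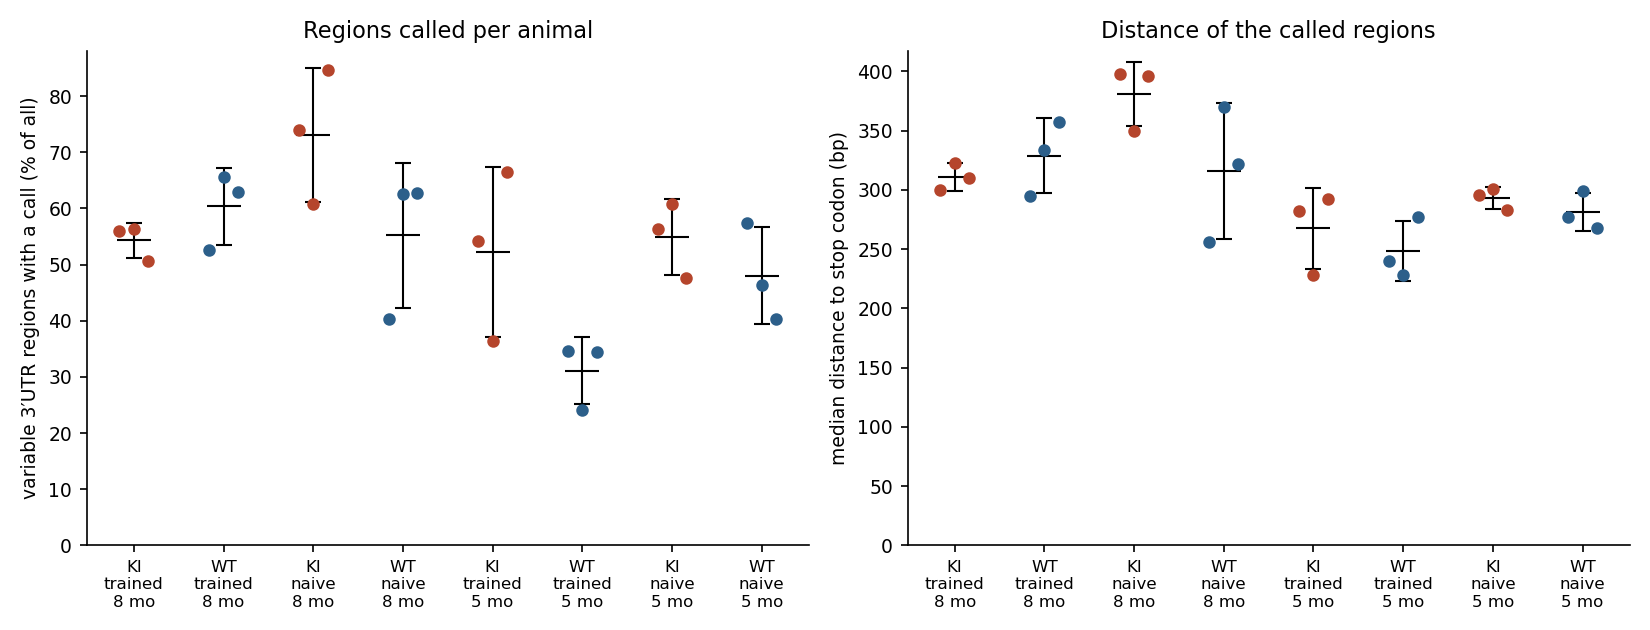
Left, variable 3′UTR regions with a call in each animal (% of 3902), and right, median distance to the stop codon of the regions called in that animal (bp), by condition (points are animals, bars the mean and SD of 3, red KI, blue WT). Naive KI mice of 8 months average 73.1% and 381 bp, and trained WT mice of 5 months 31.1% and 248 bp.

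The smallest p among the 9 tests over animals was for where the called regions lay. At 8 months the median distance to the stop codon of the regions called in an animal was 300, 323 and 310 bp in trained KI mice, 295, 334 and 358 bp in trained WT mice, 398, 350 and 396 bp in naive KI mice and 256, 370 and 322 bp in naive WT mice. At 5 months it was 282, 229 and 292 bp in trained KI mice, 240, 228 and 277 bp in trained WT mice, 296, 301 and 283 bp in naive KI mice and 277, 299 and 268 bp in naive WT mice. No animal of 5 months was above 301 bp, whereas 9 of the 12 animals of 8 months were. The mean was 334 ± 42.2 bp at 8 months and 273 ± 26.4 bp at 5 months (SD, n = 12 each), a difference of 61.6 bp over the 4 pairs (exact stratified permutation p = 0.00025, adjusted p = 0.00225 over 9 tests). The calls behind this measure also entered the choice of regions, so this p is not independent of that choice. The size of the difference also depended on the length of the peak lists, as given below. Age also coincided with the series of animals, and the part of the series in this difference was not tested.

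Each of the 4 pairs had the longer distance at 8 months, by 43.3 bp in trained KI mice, 80.5 bp in trained WT mice, 87.8 bp in naive KI mice and 34.7 bp in naive WT mice (exact permutation p = 0.1, 0.1, 0.1 and 0.4 with 3 against 3 animals). With 22601 best peaks taken per animal the difference shrank to 13.4 bp (exact permutation p = 0.000863), and without the 3 animals that stood apart in peak number or 3′UTR share it was 48.9 bp (exact permutation p = 0.00106). Median distance also moved with the median peak length of an animal (r = -0.72, rho = -0.59 over 24 animals, permutation p = 8.00e-05 and 0.00279, adjusted 0.000160 and 0.00418). The relation was r = -0.73 within the 8-month animals, -0.69 within the 5-month animals and -0.59 without the 2 farthest animals. Median peak length averaged 318 bp at 8 months and 379 bp at 5 months (exact permutation p = 0.134), and its part in the difference by age was not tested. Genotype and training moved the distance less, by 19.6 bp between KI and WT mice (exact permutation p = 0.157, adjusted p = 0.235) and -29.1 bp between trained and naive mice (exact permutation p = 0.0416, adjusted p = 0.0936).

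The gap between the ages was wider in the bins beyond 500 bp, although the gaps were not tested against each other. In the first 200 bp an animal had calls in 64.7 ± 9.76% of the variable regions at 8 months and 53.0 ± 13.0% at 5 months (SD, n = 12 each). From 200 to 500 bp the values were 65.5 ± 9.21% at 8 months and 55.3 ± 13.6% at 5 months, and from 500 to 1000 bp 55.8 ± 12.7% and 41.4 ± 12.1%. From 1000 to 2000 bp they were 56.0 ± 14.1% at 8 months and 38.1 ± 12.5% at 5 months, and beyond 2000 bp 56.5 ± 13.9% and 37.4 ± 13.5%.

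**Figure D4:**
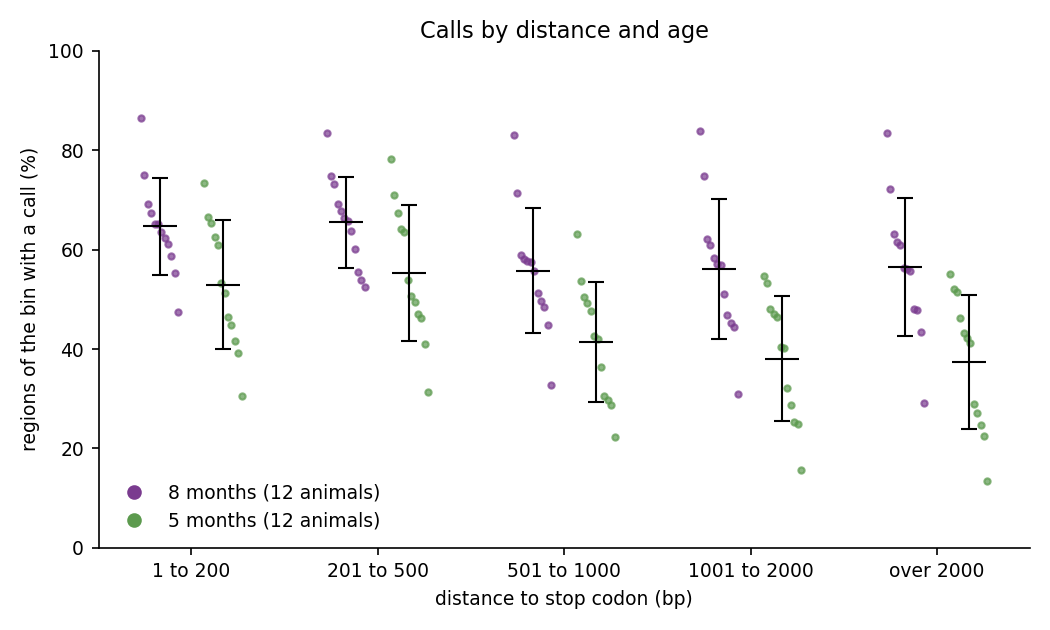
Share of the variable 3′UTR regions of each distance bin with a call (%) in each animal of 8 months (left points of each bin) and of 5 months (right points), with the mean and SD of 12 animals. The 2 ages are closest at 200 to 500 bp (65.5% and 55.3%) and farthest apart beyond 2000 bp (56.5% and 37.4%).

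Region by region, each of the 39806 variable regions of the transcriptome was tested for called against not called animals, 12 against 12, with 2-sided Fisher's exact tests and Benjamini-Hochberg adjustment over all 39806. No 3′UTR region passed an adjusted p of 0.05 for genotype, training or age (0 of 3902 each; among all variable regions 0.00251% more often in KI and 0% in the other directions), and the exact test stratified by the other 2 factors gave 0 as well. The smallest adjusted p of a 3′UTR region was 0.191, for age, and 1 for genotype and training. Leaving out 1 trained WT mouse of 8 months (replicate 220) put 3 regions under 0.05 for age, in Chd6, Faim2 and 2510009E07Rik (adjusted p = 0.0294, 0.0425 and 0.0425), and leaving out the naive WT mouse of 8 months with the fewest peaks (29783) put Chd6 and Faim2 there (0.0425 each, Fisher's exact test). Replicate 220 had no call in the 3 regions, so leaving it out lowers their p by itself. Of 24 runs leaving out 1 animal, these 2 alone had any 3′UTR region under 0.05 for age. At an unadjusted p under 0.05, 292 3′UTR regions were called more often at 8 months (7.48%, against 7.82% of all variable regions) and 4 more often at 5 months (0.103%, against 0.827%). For genotype, 60 were called more often in KI mice (1.54%, against 1.52%) and 3 in WT mice (0.0769%, against 0.0603%). For training, 2 were called more often in trained mice (0.0513%, against 0.113%) and 45 in naive mice (1.15%, against 1.15%). These counts moved with the length of the peak lists. With the 22601 best peaks of every animal, 3759 of 26746 variable regions lay in 3′UTRs. Of these 3759, 63 were called more often at 8 months and 27 at 5 months (685 and 699 of all 26746). For genotype it was 10 in KI mice and 22 in WT mice (128 and 109 of all), so that the direction turned among the 3′UTR regions. For training it was 13 in trained mice and 15 in naive mice (130 and 121 of all). In the stratified test the shares were 6.95% at 8 months (against 6.82% of all variable regions) and 0.128% at 5 months (against 0.756%). They were 1.51% in KI mice (against 1.52%) and 0.0769% in WT mice (against 0.0578%), and 0.0256% in trained mice (against 0.108%) and 1.13% in naive mice (against 1.09%).

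The 292 regions called more often at 8 months had a median distance of 1165 bp, and 55.1% of them lay beyond 1000 bp, against 34.0% of all variable 3′UTR regions. They were 4.99% of the regions in the first 200 bp, 2.63% of those at 200 to 500 bp, 8.21% at 500 to 1000 bp, 11.8% at 1000 to 2000 bp and 12.4% beyond. The 60 regions called more often in KI mice lay nearer, with a median of 185 bp and 32 of them in the first 200 bp. For the 45 more often called in naive mice the median was 777 bp. Whether these shares differ between the factors was not tested, and a region called in about as many animals as not can pass the threshold, whereas one called in 3 or in 23 animals cannot.

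The region with the smallest p for age was in Chd6, which encodes a chromatin remodelling ATPase. It lay at chr2:160773587-160774458 (mm9, minus strand), 1013 bp into a 2322 bp 3′UTR. Its fold enrichment at 8 months was 2.64, 3.89 and 2.44 in trained KI mice, 4.09 and 5.07 in 2 of 3 trained WT mice, 4.67, 2.85 and 3.89 in naive KI mice and 3.10, 4.79 and 3.30 in naive WT mice. It had a call in none of the 12 animals of 5 months, although other regions of the gene, of which 4 were called in all 24 animals, had calls in each of them. The 11 against 0 calls gave p = 9.61e-06 (Fisher's exact test, adjusted p = 0.191).

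Faim2, an inhibitor of Fas-mediated cell death in neurons, held a region 2341 bp into its 3143 bp 3′UTR with calls in 10 animals of 8 months and in 0 of 5 months (Fisher's exact p = 6.73e-05). Its fold enrichment was low, between 1.70 and 2.52. Unlike Chd6, Faim2 had a peak anywhere in the gene in 1 of the 12 animals of 5 months. The region of 2510009E07Rik at 1760 bp had calls in 11 animals of 8 months and 1 of 5 months (Fisher's exact p = 0.000107), and that of Tspan18, a tetraspanin, at 2347 bp in 9 and 0 (Fisher's exact p = 0.000337). Both genes also had a 3′UTR region called in all 24 animals. All 4 of these regions were over 1000 bp from the stop codon and were called in both genotypes and in both trained and naive mice.

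At an unadjusted p under 0.05, 4 of 3902 regions had more calls at 5 months (329 of all 39806 variable regions). With equal list lengths it was 27 of 3759 (699 of all 26746). With peaks cut to 50 bp on each side of the summit it was 78 of a larger set of 8313 (525 of all 58422). Plagl1, an imprinted gene for a zinc finger transcription factor, had calls in 1 animal of 8 months (3.54-fold enrichment) and in 8 animals of 5 months (3.23 to 5.77), 2069 bp into its 3′UTR (Fisher's exact p = 0.00942). Tmem138 and 9430038I01Rik each had calls in 5 animals of 8 months and 11 of 5 months (Fisher's exact p = 0.0272). Col4a5, a chain of basement membrane collagen, had 1 and 6 (Fisher's exact p = 0.0687).

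For genotype, Rab3d, a small GTPase of regulated secretion, had a region 37 bp after its stop codon with calls in 9 of 12 KI mice and 1 of 12 WT mice (Fisher's exact p = 0.00276, adjusted p = 1). The fold enrichment was 8.05 and 4.12 in 2 trained KI mice of 8 months and 6.05 in 1 trained WT mouse of that age, and 4.78, 3.43 and 5.31 in the naive KI mice of 8 months with no call in naive WT mice. At 5 months it was 3.49 and 4.01 in 2 trained KI mice and 4.16 and 4.17 in 2 naive KI mice, with no call in WT mice. The 1 WT value lay inside the range of the KI values.

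Ankrd43 had 9 calls in KI mice and 1 in WT mice as well (Fisher's exact p = 0.00276). Cldn14, a claudin of tight junctions, had 7 calls in KI mice and 0 in WT mice at 20 bp, with 6.10 to 8.04-fold enrichment (Fisher's exact p = 0.00458). In the other direction, Ap1m1, a subunit of the AP-1 clathrin adaptor, had calls in 1 KI mouse (2.10) and in 7 WT mice (2.85 to 4.39; Fisher's exact p = 0.0272). Gcnt4 had 4 KI and 10 WT mice with a call 2460 bp into its 3′UTR (Fisher's exact p = 0.0361).

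For training, Fkbp5, the co-chaperone that restrains the glucocorticoid receptor, had calls in 3 of 12 trained mice and 10 of 12 naive mice at 617 bp (Fisher's exact p = 0.0123, adjusted p = 1). The trained animals with a call were all of 8 months, 1 KI mouse (3.21) and 2 WT mice (3.02 and 2.94), while the naive animals had 1.76 to 3.49 in both ages. The regions of Grap (an adaptor of receptor signalling), Grem1 (an antagonist of BMP ligands) and Kctd5 had the same p, with 3 trained against 10 naive animals in Grap and Grem1 and 2 against 9 in Kctd5. More often called in trained mice were Wsb2, with 12 trained and 7 naive animals (Fisher's exact p = 0.0373), and Ccbl1, a kynurenine aminotransferase, with 8 and 2 (Fisher's exact p = 0.0361).

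**Figure D5:**
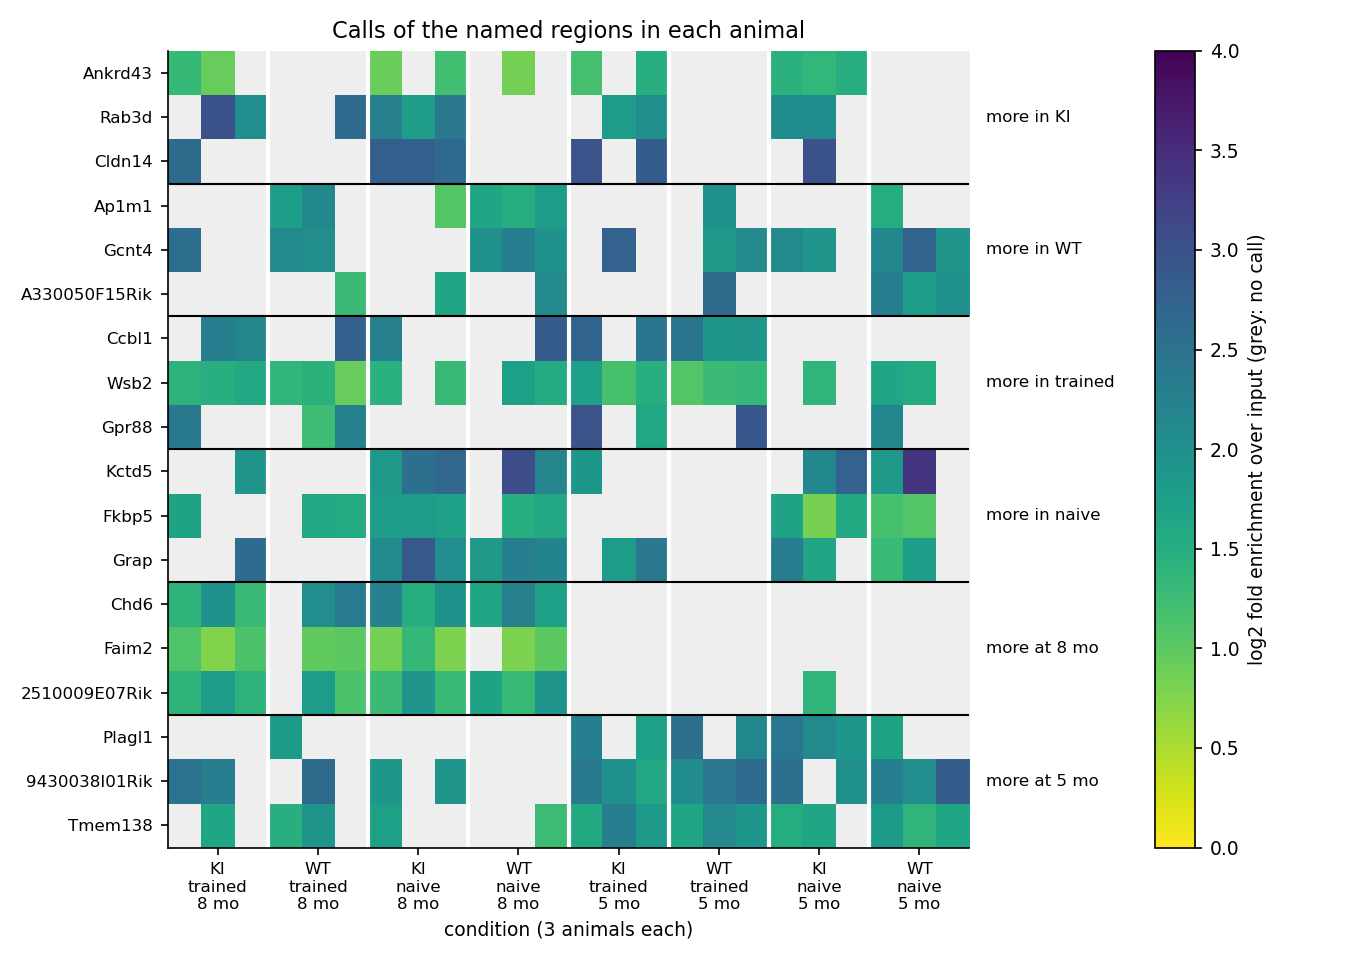
Fold enrichment over input (log2 colour scale, light grey where there was no call) of 3 regions with the smallest p in each direction of each factor (ties by fewer animals, then by name), in each of the 24 animals by condition. The 3 regions more often called at 8 months have 1 call among the 12 animals of 5 months, in 2510009E07Rik, while the genotype and training sets have calls in both groups except for Cldn14.

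The contrasts of single conditions differed in direction. Regions called in all 3 animals of one condition and in 0 of 3 of the other numbered 76 for naive KI and 4 for naive WT mice at 8 months (1.88% and 0.0628% of all variable regions were so called), and 30 and 8 for the same pair at 5 months (background 0.965% and 0.163%). They numbered 86 for trained KI and 0 for trained WT mice at 5 months (background 2.17% and 0.0327%), but 7 for trained KI and 28 for trained WT mice at 8 months (background 0.163% and 0.781%). For training at 8 months, 1 region was called in all trained and no naive KI mice and 91 the other way (background 0.0653% and 2.44%), against 34 and 7 in WT mice (background 0.761% and 0.244%). At 5 months the counts were 5 and 19 in KI mice (background 0.422% and 0.518%) and 3 and 46 in WT mice (background 0.0553% and 1.21%). Of the larger counts, the 3′UTR share was 1.95% for the 76 regions, 2.2% for the 86, 2.33% for the 91 and 1.18% for the 46, each close to its background. The contrasts share animals with each other. Summed over the 4 contrasts of a factor, the counts were 199 for KI and 40 for WT mice, and 43 for trained and 163 for naive mice. With the 22601 best peaks of every animal they were 75 for KI and 81 for WT mice, and 91 for trained and 54 for naive mice, so that both directions turned.

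For age, 126 regions were called in all naive KI mice of 8 months and none of 5 months and 7 the other way (background 3.58% and 0.51%), 26 and 14 in naive WT mice (background 0.867% and 0.739%), 25 and 20 in trained KI mice (background 0.46% and 1.22%) and 163 and 0 in trained WT mice (background 3.09% and 0.0301%). The 163 regions were 4.18% of the variable 3′UTR regions and the 126 were 3.23%. Summed over the 4 contrasts the counts were 340 for 8 months and 41 for 5 months, and 97 and 84 with the 22601 best peaks of every animal. The 2 conditions behind the large counts, naive KI mice of 8 months and trained WT mice of 5 months, had the longest and the shortest peak lists.

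The strongest region of a set could be called in other conditions too. Vps4b, an ATPase of the ESCRT membrane-cutting machinery, had a region with 6.45, 4.43 and 5.21-fold enrichment in naive KI mice of 5 months and no call in naive WT mice of that age, yet it was called in at least 2 of 3 animals of the other conditions, 18 animals in all. Rnf152, a lysosomal ubiquitin ligase, had no call in trained KI mice of 8 months and 9.94, 7.20 and 6.58 in trained WT mice of 8 months at 6220 bp, but at 5 months it had 6.58, 6.90 and 4.51 in trained KI mice and no call in trained WT mice. Snap91, the clathrin assembly protein AP180 of presynaptic vesicles, had 2.13, 2.01 and 1.80 in trained KI mice of 8 months and no call in naive KI mice of that age. Fam111a had no call in naive KI mice of 8 months and 5.59, 6.59 and 3.80 in naive WT mice of that age, and it was called in all 3 naive KI mice of 5 months (4.90, 5.36 and 5.76).

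Variable regions were found in each of 5 lists of synaptic and channel genes. Of the 24 glutamate receptor genes listed, 11 held 13 variable regions, with a median distance of 1372 bp and calls in 4 to 23 animals. Of 38 postsynaptic scaffold genes 16 held 20, of 38 presynaptic genes 18 held 22, of 21 GABA synapse genes 6 held 6 and of 41 voltage-gated channel genes 10 held 11, at median distances of 669, 744, 1160 and 2056 bp. At an unadjusted p under 0.05, 1 of 13 glutamate, 3 of 20 postsynaptic, 3 of 22 presynaptic, 0 of 6 GABA and 2 of 11 channel regions were called more often at 8 months. Over all variable 3′UTR regions it was 7.48%, and over all variable regions 7.82%. In these 5 lists 0 were called more often at 5 months or in either genotype or state. Regions called in very few or in nearly all animals cannot pass this test.

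Gria4, an AMPA receptor subunit, carried a region 1876 bp into its 2253 bp 3′UTR with calls in 21 animals and a median fold enrichment of 4.72, with missing calls in 1 naive WT mouse of 8 months and 2 trained WT mice of 5 months. Grm8, a presynaptic metabotropic receptor, had 8.87 in 23 animals on a 3′UTR annotated with 33 bp, and Gabrd, the delta subunit of extrasynaptic GABA-A receptors, 5.06 in 20. Cacng2 (stargazin, which carries AMPA receptors to the synapse) and Kcnd3 (the Kv4.3 potassium channel) were each called in 22 animals, at 1563 and 4400 bp, with 3.70 and 3.48. Ppfia1 and Ppfia4, liprins of the presynaptic active zone, had 3.96 and 3.49 in 23 and 22 animals.

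Of 36 immediate-early genes, 11 held 12 variable regions, called in a median of 22 animals, against 12 animals over all variable 3′UTR regions. Homer1, a postsynaptic scaffold with an activity-induced short form, had a region 97 bp after the stop codon in 23 animals, with a fold enrichment of 6.14, 4.86 and 5.41 in trained KI mice and 4.67, 5.23 and 5.80 in trained WT mice of 8 months, and 8.07, 6.06 and 3.17 in naive KI mice and 5.87, 6.44 and 5.73 in naive WT mice of that age. Its trained and naive ranges overlapped. Atf3 and Maff, stress-induced bZIP factors, had 6.23 in 22 and 6.26 in 23 animals. No region of the list passed the unadjusted threshold of Fisher's exact test for training or genotype. A region called in 22 or 23 animals cannot pass it under any arrangement, so for such regions the test could not decide. For age, 2 of 12 passed, with more calls at 8 months (against 7.48% of all variable 3′UTR regions and 7.82% of all variable regions).

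Of 24 genes of the m6A machinery, 3 held a variable region. The one in Fto, the demethylase gene, lay 51 bp after its stop codon (chr8:94190095-94190674, plus strand) and was called in 6 animals of 8 months and 0 of 5 months (Fisher's exact p = 0.0137 before adjustment). Its fold enrichment was 2.7 in 1 trained KI mouse and 2.95 in 1 trained WT mouse, and 3.69 and 3.18 in naive KI mice and 2.87 and 1.73 in naive WT mice. The calls came from 3 KI and 3 WT mice. Of the 11 common regions of Fto, 1 was called in all 24 animals, so each of the 12 animals of 5 months had a peak in the gene. At an unadjusted p under 0.05, 1 of the 3 regions of this list was thus called more often at 8 months. Over all variable 3′UTR regions it was 7.48%, and over all variable regions 7.82%. 1110037F02Rik, the virilizer homolog of the writer complex, had 5.56 in 21 animals at 715 bp.

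Of 58 listed genes for 3′ end formation, mRNA decay and 3′UTR binding, 21 held 24 variable regions. Cpsf2, a subunit of the cleavage and polyadenylation factor, was called in 17 animals 1873 bp into its 3′UTR, in 3 of 3 animals of 4 conditions and in 0 of 3 trained WT mice of 5 months. Zfp36l1, which binds AU-rich elements and promotes decay, was called in 9 animals with 4.62. In CREB and TrkB signalling, 11 of 35 genes held 22 regions at a median of 2279 bp, and at an unadjusted p under 0.05, 3 of the 22 were called more often at 8 months, 1 in KI and 2 in naive mice (against 7.82%, 1.52% and 1.15% of all variable regions). Ngfr, the p75 neurotrophin receptor, had 7.68 in 23 animals, and Rps6ka5, the CREB kinase MSK1, 5.02 in 13.

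Markers of hippocampal cell types were checked by peaks anywhere in the gene. Of 6 CA1 markers 5 to 6 had a peak in every animal and of 8 dentate granule markers 5 to 6, while of 9 choroid plexus markers 1 to 7 and of 8 striatal markers 6 to 7 had one. Of the lists, Calb1, Tdo2, Pvalb, Vip, Aqp1, Ttr and Tac1 had none in any animal. Oligodendrocyte markers held 11 variable 3′UTR regions in 6 of 8 genes, called in 54.5% of the cases at 8 months and 30.3% at 5 months, and 3 of them passed an unadjusted p of 0.05 with more calls at 8 months. The 4 variable regions of microglia markers were called in 68.8% of the cases at 8 months and 43.8% at 5 months, and 0 of them passed. Over all 3902 variable 3′UTR regions it was 60.8% at 8 months and 46.6% at 5 months, and 7.48% passed with more calls at 8 months. Oligodendrocyte and microglia markers had the widest gaps by age of the marker lists. CA1 markers had 16.7% at both ages. At 8 and 5 months, CA3 markers had 33.3% and 16.7%, and interneuron markers 58.3% and 44.4%. Striatal markers had 29.2% and 20.8%, and endothelial markers 27.1% and 20.8%. Astrocyte markers had slightly more calls at 8 months, and choroid plexus markers had fewer. CA1, CA3 and choroid plexus markers held 1 region each. The part of any cell type in the difference by age was not tested.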

How the data were processed

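Per the labels and the study's methods, hippocampal RNA of each animal was fragmented, part was immunoprecipitated for m6A, and IP and input libraries were sequenced. The authors aligned reads with STAR 2.7.3a to mm9, kept unique reads outside repeats and called peaks with MACS2 2.2.6 in each IP library against its own input. The 24 deposited peak lists hold for each peak a fold enrichment (ratio of IP to input at the summit), a -log10 p-value, a -log10 q-value and a display score, all set by the authors' MACS2 runs. The score was read but not tested. Peak lists carry no read depth, and 0 value columns were left unmapped. A further 10 deposited tables hold the authors' DiffBind 2.8.0 comparisons (fold changes and p-values) and were not used.

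Peaks were joined across animals (1 bp overlap) and placed on a gencode annotation of the same build, with the distance counted along the transcript from the stop codon. Means over animals were compared with exact permutation tests stratified by the other factors (160000 arrangements), 3 against 3 animals exactly (smallest p 0.1), interactions over 400 arrangements, and single regions with 2-sided Fisher's exact tests adjusted by Benjamini-Hochberg over 39806 regions. Python 3.11.15, numpy 2.4.6, scipy 1.17.1, pandas 2.3.3 and matplotlib 3.10.9 were used, and the steps were checked on simulated data. Genes named are, for each factor and direction, the 4 regions with the smallest p; for each genotype and training contrast the strongest region called in 3 of 3 against 0 of 3 animals; the 5 genes with the most regions; the 5 strongest regions, 3 farthest and 3 nearest called in at least 12 animals; and 2 regions per gene list. Of these, 1 region is not reported here. Eif2c3 was named after its value was seen. Regions and gene lists were chosen with earlier results of these data known.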

Additional observations from a re-analysis of the deposited data

How the results depend on the processing

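The longer distance at 8 months kept its direction and passed the threshold of the exact permutation test under every alternative run (13.4 to 54.3 bp, and 54.8 to 69.1 bp leaving out 1 animal). In each run the calls also entered the choice of regions. No paired analysis was possible because each animal belongs to 1 condition and its number links only its IP to its input, which has no file used here. Leaving out 1 animal at a time gave 8.11 to 12.0 points for regions called in KI less WT mice (no longer past the threshold of the exact permutation test in 8 of 24 runs), -10.2 to -6.29 for trained less naive and 12.2 to 16.02 for 8 less 5 months, -0.0879 to 0.400 points for the 3′UTR share by training (below 0 in 5 runs, at -0.0488 without 1 naive WT mouse of 5 months, -0.0157 and -0.00848 without 1 naive or 1 trained WT mouse of 8 months, and -0.0251 and -0.0879 without 1 of 2 trained KI mice of 5 months), and -36.6 to -22.3 bp for distance by training (no longer past the threshold in 14 of 24 runs, p = 0.0042 to 0.129, exact permutation). The same runs gave 307 to 470 and 5 to 12 regions more often called at 8 and at 5 months, 69 to 166 and 3 to 7 in KI and in WT mice, 2 to 7 and 53 to 109 in trained and in naive mice, and 0 to 3 past the adjusted threshold for age. With -log10 q of 3 or more the KI less WT difference was 7.23 points, and 189 and 7 regions differed by age and 4 and 28 by training. With 22601 best peaks per animal the differences in regions called were -1.91 (genotype), 1.81 (training) and -0.43 points (age), the region counts 10 and 22, 13 and 15, and 63 and 27, and the 3 of 3 against 0 of 3 counts 75 and 81, 91 and 54, and 97 and 84 (with all peaks 199 and 40, 43 and 163, 340 and 41). With peaks cut to 50 bp on each side of the summit the KI less WT difference was 5.89 points, the 3′UTR share by age -0.19 points, the distance by training -21.0 bp, the counts in WT mice 14, trained mice 20 and 5 months 78, and the 3 of 3 counts 303 and 126, 122 and 266, and 145 for 5 months. Distance by training was -22.2 bp by summit and -25.0 bp to the nearest stop codon. The stratified test gave 1 region for trained mice. Variable 3′UTR regions numbered 3921 with -log10 q of 3 or more, 3759 with the 22601 best peaks and 8313 with cut peaks. At that q, all 37144 variable regions gave 1955 and 461 by age and 70 and 340 by training. With cut peaks, all 58422 gave 77 in WT mice, 98 in trained mice and 525 at 5 months. Leaving out 3 animals that stood apart, chosen after seeing the data, gave 8.88 points for KI less WT, 0.0617 points for the 3′UTR share by genotype, -16.4 bp for distance by training, and 6 (WT), 7 and 25 (training) and 173 and 11 (age) regions. GGAC stood in 24.4% of 50 bp and 63.5% of 200 bp windows. The cause of these changes was not tested, beyond the longer or shorter window itself. A missing call is not a measured absence, since the lists hold only peaks past the caller's threshold and read depth is unknown here.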
